A study of Mus musculus with 32 samples.

Results

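The smooth muscle contractile genes described here are 10 of the 49671 genes in the count table: Acta2, Tagln, Myl9, Cnn1, Cnn2, Tpm1, Tpm2, Actg2, Myh11, and Lmod1. They are a named list, chosen by function and selected on earlier results of the same libraries, among them lower levels after 5 d exposure, so that the comparisons with untreated neurons at 5 d are given as a description and support nothing. The libraries came from primary cortical neurons of wild-type (WT) C57BL/6 mice, prepared from forebrains of late embryos from which meninges and superficial blood vessels had been removed. Neurons were left untreated or were exposed to 10 µg/mL of a synthetic oligoribonucleotide, which was miR-92a-1-5p, the other miRNA miR-124-5p, or Mut.oligo, a mutated let-7b sequence that served as the control for sequence specificity. Each of these 4 conditions comprised 4 replicate libraries from the 6 h time point and 4 from the 5 d time point, 32 libraries in all. Values for the 3 oligoribonucleotides are given below in this order. Such cultures hold other cells beside neurons, and in bulk RNA fewer cells of a type and less RNA per cell cannot be told apart.

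Smooth muscle contraction depends on thin filaments of actin and thick filaments of myosin. Acta2 and Actg2 encode the smooth muscle actins, known as markers of vascular and enteric smooth muscle, respectively. Myh11 is the smooth muscle myosin heavy chain and Myl9 a regulatory light chain. Tropomyosins (Tpm1, Tpm2) and calponins (Cnn1, Cnn2) bind along actin filaments, Tagln (transgelin, SM22) is a calponin-related actin-binding protein, and Lmod1 (leiomodin) nucleates actin filaments. In the brain, these genes are best known from smooth muscle cells and pericytes of vessels and from fibroblasts that have turned contractile. Tpm1, Cnn2, and Myl9 are also used outside muscle. Serum response factor (SRF) with its partner myocardin switches on many of these genes through the CArG box, which consists of CC, 6 bases that are A or T, and GG.

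The promoter windows are shown because the CArG box is the sequence that best defines this programme. RefSeq promoter entries on GRCm38.p6 were at hand for 7 of the 10 members, the exceptions being Tagln, Actg2, and Myh11. In the 250 bases before the RefSeq start, Myl9 and Cnn2 hold an exact CArG box, as do 1.47% of all 32851 promoters searched, 482 in number. When 1 other base was allowed among the 6 central bases, Acta2 joined them, giving 3 of 7 members beside 8.59% of all promoters. The motif reads alike on both strands. The letters TATAA, on either strand, were found in 1 of the 7 members, Cnn2, where they overlap the CArG box, and in 22.8% of all promoters. These are matches of letters, not sites shown to be bound. In the following stretches, written 5′ to 3′ on the strand of the gene, capitals mark the CArG boxes.
Myl9, chr2:156775293-156775419, plus strand, 171 to 45 bases before the start, outside annotated exons: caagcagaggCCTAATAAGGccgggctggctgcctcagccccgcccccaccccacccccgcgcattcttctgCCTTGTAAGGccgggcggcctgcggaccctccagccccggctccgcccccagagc
Cnn2, chr10:79988534-79988583, plus strand, 66 to 17 bases before the start, outside annotated exons: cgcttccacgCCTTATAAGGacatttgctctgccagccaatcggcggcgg
Acta2, chr19:34255438-34255467, minus strand, 94 to 65 bases before the start: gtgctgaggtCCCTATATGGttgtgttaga
Acta2, chr19:34255388-34255417, minus strand, 44 to 15 bases before the start: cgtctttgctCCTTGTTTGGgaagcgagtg
The first box of Myl9 and the box of Cnn2 are exact, and the other 3 carry 1 substitution. The Acta2 boxes lie before the RefSeq start but inside the first exon of Acta2 in GENCODE M21, whose start lies further upstream.

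The libraries held 24514090 to 73626029 counts at 6 h (median 33021610) and 38092275 to 60520413 at 5 d (median 50126395). Levels are given in CPM, the count scaled to a common library total, where 3 counts correspond to 0.0407 to 0.122 CPM. This floor covers counting error only. The members differ greatly in depth. Tpm1 had 2569 to 7387 counts per library, Cnn2 76 to 583, Acta2 11 to 395, and Myl9 48 to 234. In contrast, Lmod1 was at or under 3 counts in 10 of the 32 libraries, Actg2 in 7, and Cnn1 in 4, so that their values rest on few reads. All 10 members passed the filter of at least 5 counts in at least 3 libraries at both time points. The neuron markers Map2 and Tubb3 averaged 2054 and 1786 CPM, as the label of the cultures implies. The label of a smooth muscle programme was met only in part: the myocardin gene Myocd was at or under 3 counts in all 32 libraries, the muscle filament gene Des in 26, and the channel subunit gene Kcnmb1 in 28. Of the mural cell genes, Pdgfrb and Cspg4 had mean levels of 7.90 and 9.06 CPM, Vtn of 3.86 CPM, Rgs5 of 2.39 CPM, and Anpep of 1.14 CPM, whereas Abcc9 (0.190 CPM), Ndufa4l2 (0.179 CPM), Kcnj8 (0.0887 CPM), and Higd1b (0.0062 CPM) were near or at the floor. Among fibroblast and meningeal genes, Pdgfra averaged 41.2 CPM and Fn1 64.4 CPM. Col3a1 averaged 28.7 CPM, Col1a2 25.6 CPM, Col1a1 23.1 CPM, and Dcn 12.9 CPM. Col5a1 (10.98 CPM), Lum (3.02 CPM), and Slc6a13 (1.32 CPM) were lower. Cspg4 and Pdgfra also mark oligodendrocyte precursors, whose genes Olig1 (65.8 CPM) and Olig2 (28.0 CPM) were abundant. On GRCm38, with GENCODE M21 annotation, the members the results turn on are the protein-coding genes Acta2 (ENSMUSG00000035783) at chr19:34241090-34255590 on the minus strand, Tagln (ENSMUSG00000032085) at chr9:45929619-45936058 on the minus strand, Myl9 (ENSMUSG00000067818) at chr2:156775420-156781658 on the plus strand, Cnn2 (ENSMUSG00000004665) at chr10:79988584-79996062 on the plus strand, and Actg2 (ENSMUSG00000059430) at chr6:83512905-83536265 on the minus strand. The members share no exon on the same strand with another gene, and 0 of their 75-base windows occur in transcripts of other genes.

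The level of each member was first compared per length, as CPM per kb of annotated exon, in untreated neurons. Tpm1 stood apart with 15.6 ± 0.434 at 6 h and 16.7 ± 0.458 at 5 d (SD, n = 4). At 6 h, Cnn2 (2.63 ± 0.653), Myl9 (2.05 ± 0.467), and Acta2 (1.52 ± 0.540) followed, and neighbours among these 3 did not differ beyond their spread. Tpm2 came next with 0.366 ± 0.117. Actg2 (0.140 ± 0.0703), Tagln (0.0971 ± 0.0530), Cnn1 (0.0545 ± 0.0317), Myh11 (0.0520 ± 0.0282), and Lmod1 (0.0395 ± 0.0294) were lowest, and no neighbours in this row of 5 differed beyond their spread. At 5 d, Tagln had moved to the third place with 1.26 ± 1.08, between Myl9 (1.62 ± 0.809) and Cnn2 (1.16 ± 0.328), with Acta2 at 0.724 ± 0.575. Again, neighbours among these 4 did not differ beyond their spread. Tpm1 alone took 81.2% to 96.2% of the counts of the 10 members in a library (median 90.4%). A sum over the list is therefore a measure of Tpm1, and the other 9 members added up to between 4.47 and 21.3 CPM.

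**Figure D1:**
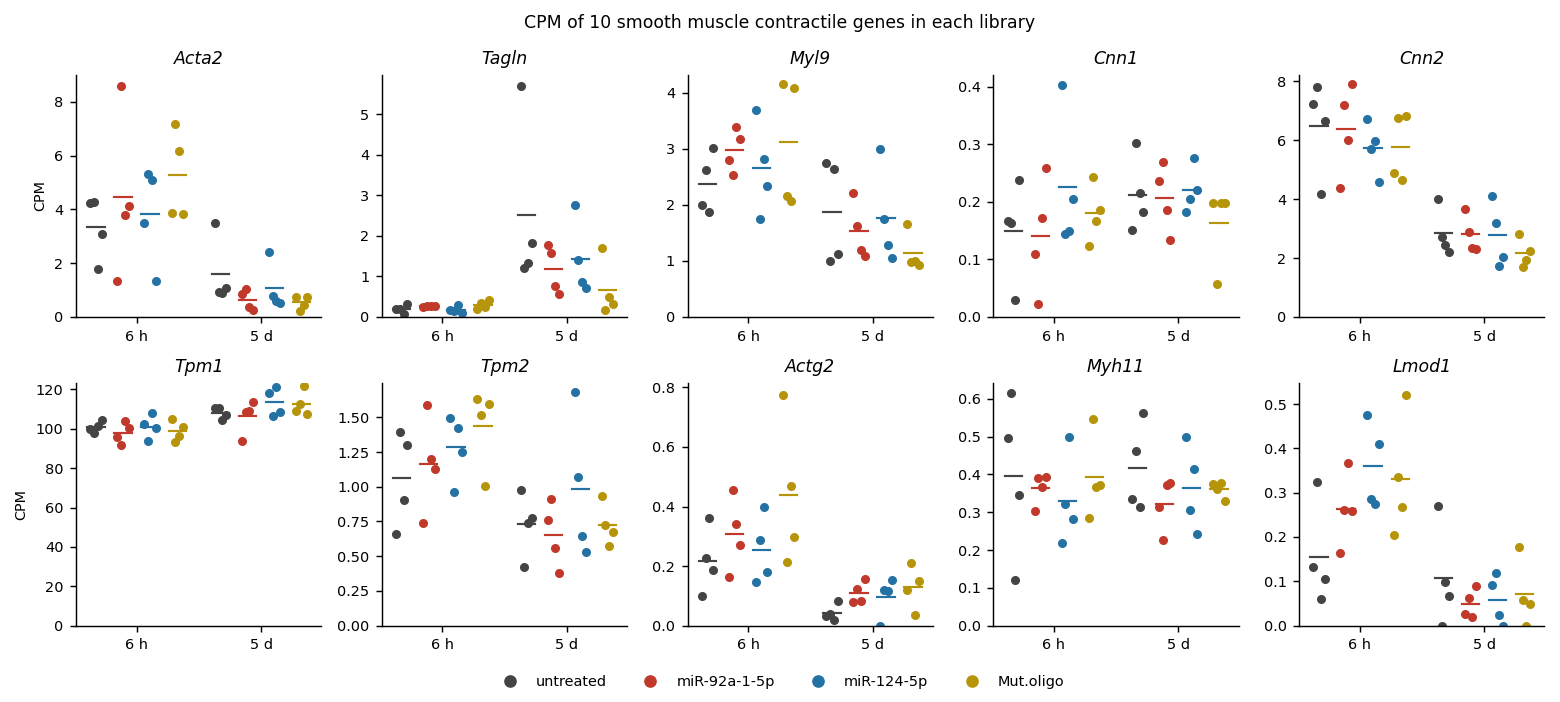
CPM of the 10 members in each of the 32 libraries, a panel per gene, with 4 points per condition and a horizontal line at their mean. The 6 h libraries are on the left of each panel and the 5 d libraries on the right. Tagln lies at 0.0604 to 0.409 CPM in all 6 h libraries, and untreated replicate 1 at 5 d stands above all others with 5.70 CPM.

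Untreated neurons at 5 d were compared with untreated neurons at 6 h to describe how the members change in culture. Tagln rose, and Cnn2 and Actg2 fell, whereas Tpm1 differed by only 0.09 on the log2 scale and did not pass. No experiment batch, the label that each library carries for its experiment, held libraries of both times, so that time and batch cannot be told apart. The untreated libraries at 5 d also entered the results on which the list was selected. Hence, the p-values of the members over time are not free of that selection. In this comparison, 33.5% of the 20425 genes tested passed the threshold, which was an adjusted p under 0.05 (edgeR, Benjamini-Hochberg) together with a change of more than 0.5 on the log2 scale, and 3 of the 10 members did. The median log2 fold change was -0.42 over the members and 0.04 over all genes.

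Tagln was measured at 0.199, 0.195, 0.0604, and 0.318 CPM in untreated neurons at 6 h and at 5.70, 1.21, 1.33, and 1.82 CPM at 5 d. The groups did not overlap, and replicate 1 at 5 d was far above the others. The log2 fold change of Tagln was 3.66 ± 0.63 (SE; edgeR adjusted p = 1.32e-05, n = 4 per group), and 2.91 ± 0.58 (edgeR adjusted p = 0.000132) without that library. Over the summed counts, 26 at 6 h and 577 at 5 d, this is a 13.2-fold higher level with a counting interval of 8.95 to 20.4. Tagln was also higher at 5 d than at 6 h after miR-92a-1-5p (1.17 against 0.262 CPM) and after miR-124-5p (1.43 against 0.182 CPM), without overlap of libraries. After Mut.oligo, the means were 0.673 and 0.295 CPM and the libraries overlapped. These changes in exposed neurons were not tested.

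Cnn2, a calponin of many non-muscle cells, was measured at 7.23, 7.82, 4.16, and 6.65 CPM in untreated neurons at 6 h and at 4.02, 2.71, 2.44, and 2.21 CPM at 5 d. All 5 d libraries were below all 6 h libraries, with a log2 fold change of -1.19 ± 0.23 (edgeR adjusted p = 7.15e-05). The same held for the libraries of each of the 3 exposed conditions, in which Cnn2 fell from between 5.74 and 6.38 to between 2.17 and 2.80 CPM in the mean. Actg2, the enteric smooth muscle actin, was counted 3, 7, 12, and 7 times in untreated neurons at 6 h and 2, 2, 1, and 5 times at 5 d. Its fitted log2 fold change was -2.22 ± 0.64 (edgeR adjusted p = 0.00385), and the ratio of summed CPM was 0.206 with a counting interval of 0.0895 to 0.434. Both genes passed in each of the 8 fits that left out 1 untreated library.

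Acta2 was measured at 4.25, 4.28, 1.78, and 3.07 CPM in untreated neurons at 6 h and at 3.48, 0.925, 0.879, and 1.07 CPM at 5 d. With replicate 1 at 5 d the groups overlapped, and the log2 fold change of -1.07 ± 0.52 did not pass (edgeR adjusted p = 0.0854). Without that library, it was -1.76 ± 0.55 and passed (edgeR adjusted p = 0.00918). Hence, Acta2 and Tagln, often used side by side as smooth muscle markers, had opposite directions in untreated neurons, although of these only the rise of Tagln passed with all libraries. Of the other members, Myl9, Tpm2, and Lmod1 had log2 fold changes of -0.37 ± 0.31, -0.55 ± 0.31, and -0.47 ± 0.69, and Cnn1, Myh11, and Tpm1 of 0.47 ± 0.48, 0.10 ± 0.32, and 0.09 ± 0.06, none of which passed. For Tpm1, the 95% interval was -0.04 to 0.22.

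**Figure D2:**
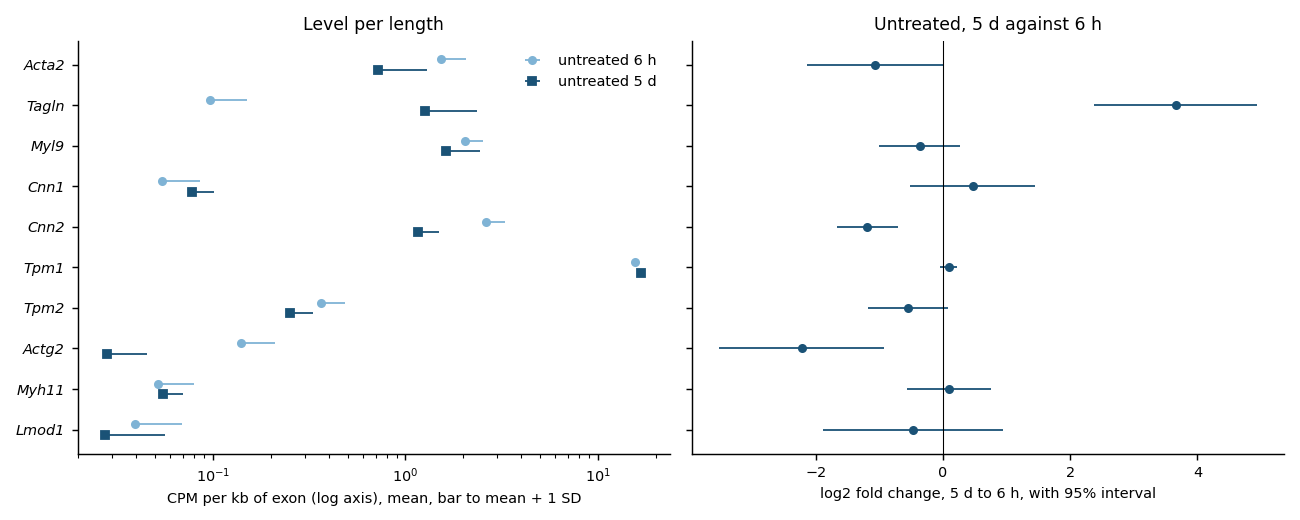
Left, CPM per kb of exon of each member in untreated neurons at 6 h and 5 d, on a log axis, as the mean with a bar to 1 SD above it (n = 4). Right, log2 fold change of untreated neurons at 5 d against 6 h with its 95% interval. Tagln is the only member far to the right of 0, at 3.66, and Actg2 lies farthest to the left, at -2.22.

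Lists of related genes were called over the same time about as often as all genes, of which 33.5% were. Of 14 non-muscle counterparts of the members, 5 fell (Tpm4, Tagln2, Tagln3, Myl12b, and Myl6) and 0 rose. The paralogues Tagln2 and Tagln3 were thus lower at 5 d, with 6.73 against 15.2 CPM and 53.4 against 106 CPM, while Tagln was higher. The cytoplasmic actin Actb missed the threshold on size only, with a log2 fold change of -0.48 ± 0.07 (edgeR adjusted p = 2.34e-06). Of 13 tested among 15 other smooth muscle contractile and cytoskeletal genes, 3 rose and 3 fell. Of 11 tested among 12 regulators, 2 rose and 2 fell, with Srf, Mrtfb, Tgfbr1, and Klf4 as those that passed. Markers of other cells moved with time as well: 7 of 7 astrocyte and radial glia genes rose, 6 of 6 genes of dividing cells fell, and of 8 tested mural cell genes 1 (Pdgfrb) rose and 4 fell. Their part in the changes of the members was not tested.

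Exposure for 6 h was compared with untreated neurons next. No member passed after any oligoribonucleotide, where 0.0% of the 18755 genes tested passed without a covariate in any of the 3 comparisons (edgeR). At an unadjusted p under 0.05, 0, 1, and 1 of the 10 members were found, beside 891, 852, and 1780 of all genes, respectively. With the experiment batch as a covariate, 0.208%, 0.0%, and 0.0213% of all genes passed, again with 0 members, and DESeq2 with and without that covariate also gave 0. At an unadjusted p under 0.05, the edgeR fit with the batch gave 1, 1, and 2 members, beside 2505, 1086, and 1589 of all genes. The 3 comparisons share their 4 untreated libraries. Median log2 fold changes of the members were 0.22, 0.18, and 0.40, and those of all genes between -0.003 and 0.006.

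Acta2 varied more between libraries than between conditions at 6 h. It was measured at 1.32, 8.60, 3.79, and 4.13 CPM after miR-92a-1-5p, at 3.51, 5.33, 5.10, and 1.33 CPM after miR-124-5p, and at 3.88, 7.17, 6.18, and 3.83 CPM after Mut.oligo. All conditions overlapped, and the log2 fold changes to untreated were 0.43 ± 0.46, 0.20 ± 0.47, and 0.67 ± 0.47 (edgeR adjusted p = 0.999, 1.000, and 0.693). The 3 lowest libraries, untreated replicate 3 (1.78), miR-92a-1-5p replicate 1 (1.32), and miR-124-5p replicate 4 (1.33), belong to 1 experiment batch and are the only libraries of it. With the batch as a covariate, the SE of Acta2 fell from 0.46 to 0.16 for miR-92a-1-5p, and the log2 fold change was 0.33 (95% interval -0.02 to 0.67). Tagln had 0.247 to 0.272 CPM after miR-92a-1-5p, 0.102 to 0.300 CPM after miR-124-5p, and 0.204 to 0.409 CPM after Mut.oligo, all overlapping with untreated neurons, and log2 fold changes of 0.42 ± 0.39, -0.07 ± 0.43, and 0.59 ± 0.41.

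Within a shared batch, an exposed library can be set beside the untreated library of the same experiment, which gave 8 such pairs at 6 h. Myl9 was measured at 1.99, 2.63, 1.87, and 3.02 CPM in untreated neurons, at 2.52 to 3.40 CPM after miR-92a-1-5p, at 1.75 to 3.69 CPM after miR-124-5p, and at 2.07 to 4.16 CPM after Mut.oligo, so that all groups overlapped. Within pairs, it was higher in the exposed library in 8 of 8, by 0.06 to 0.56 in log2(CPM + 0.1), but its log2 fold changes of 0.32 ± 0.24, 0.16 ± 0.25, and 0.37 ± 0.25 did not pass, nor did they with the batch as a covariate (edgeR adjusted p = 0.227, 0.893, and 0.547). Lmod1, the actin nucleator, was counted 4, 10, 2, and 4 times in untreated neurons, 6, 12, 15, and 19 times after miR-92a-1-5p, 13, 8, 11, and 16 times after miR-124-5p, and 5, 11, 8, and 14 times after Mut.oligo. It was higher in 7 of 8 pairs and had log2 fold changes of 0.77 ± 0.43, 1.22 ± 0.43, and 1.10 ± 0.44. The last 2 are the members counted above with an unadjusted p under 0.05 without a covariate, with adjusted p = 1.000 and 0.468 (edgeR). The other 8 members went in both directions within the pairs.

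**Figure D3:**
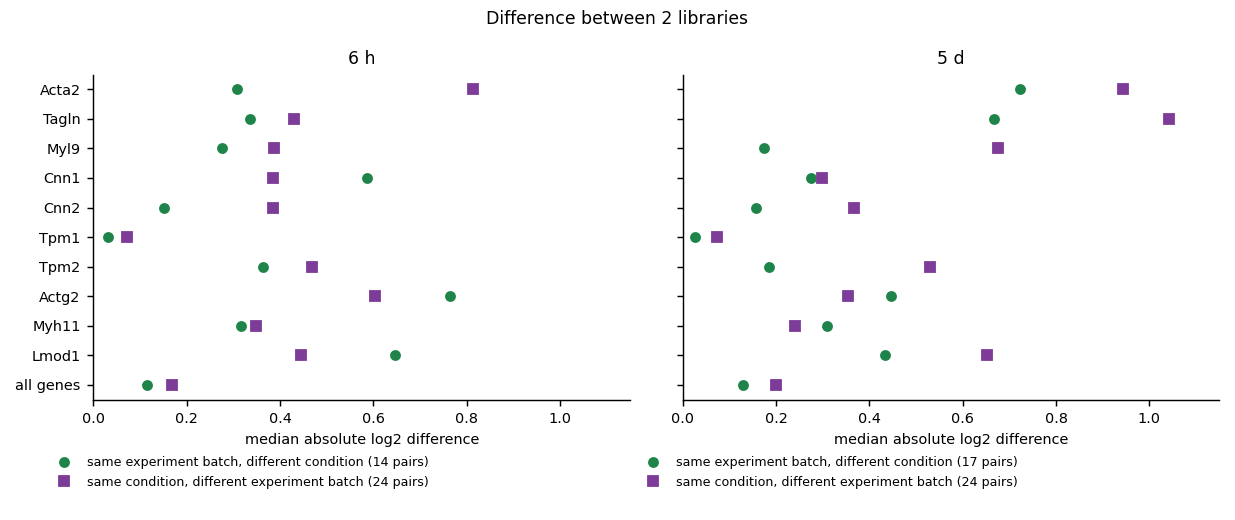
Median absolute difference between 2 libraries in log2(CPM + 0.1) for each member and, as a median, for all genes tested, between libraries of the same batch in different conditions (circles) and of the same condition in different batches (squares). At 6 h, Acta2 lies at 0.308 within batches and at 0.813 between them.

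The plot of differences between libraries extends this to all members. At 6 h, libraries of the same batch and different conditions (14 pairs) differed by a median of 0.308 for Acta2 and 0.152 for Cnn2, whereas libraries of the same condition in different batches (24 pairs) differed by 0.813 and 0.385, respectively. The median over all genes was 0.115 within and 0.170 between batches. At 5 d, Myl9 showed the same order, with 0.174 over 17 pairs within batches and 0.675 over 24 pairs between them. Acta2 and Tagln kept this order at 5 d, with 0.723 and 0.666 within batches and 0.943 and 1.04 between them. The order was the opposite for the scarce members Cnn1, Actg2, and Lmod1 at 6 h and for Actg2 and Myh11 at 5 d. Pairs share libraries, and these values are given without a test.

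At 5 d, the members were compared with untreated neurons as a description, since the list was selected on these libraries. Without a covariate, 0 of 10 members passed after each oligoribonucleotide, beside 0.00517%, 0.0%, and 0.0% of the 19333 genes tested, respectively. With the experiment batch as a covariate, Tagln was lower after all 3 oligoribonucleotides and Acta2 after miR-92a-1-5p. These are 2, 1, and 1 members, and 0.347%, 0.0259%, and 0.0466% of all genes were called lower, respectively. The 3 comparisons share the 4 untreated libraries, and untreated replicate 3 is the only library of its batch and therefore adds nothing to the fit with the covariate.

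Tagln was measured at 5.70, 1.21, 1.33, and 1.82 CPM in untreated neurons. It was at 1.78, 1.57, 0.763, and 0.557 CPM after miR-92a-1-5p, at 2.77, 1.41, 0.850, and 0.704 CPM after miR-124-5p, and at 1.70, 0.172, 0.503, and 0.314 CPM after Mut.oligo. Each exposed condition had libraries within the range of untreated neurons, so the groups overlapped. Without a covariate, the log2 fold changes were -1.10 ± 0.61, -0.83 ± 0.60, and -1.90 ± 0.63. With the batch as a covariate, they were -1.89 ± 0.23, -1.66 ± 0.23, and -2.17 ± 0.22.

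Acta2 was measured at 3.48, 0.925, 0.879, and 1.07 CPM in untreated neurons, at 0.840, 1.03, 0.351, and 0.267 CPM after miR-92a-1-5p, at 2.43, 0.782, 0.574, and 0.506 CPM after miR-124-5p, and at 0.752, 0.210, 0.449, and 0.744 CPM after Mut.oligo. Here the 4 Mut.oligo libraries lay below all untreated libraries, whereas the groups of both miRNAs overlapped with untreated neurons. The log2 fold changes were -1.34 ± 0.57, -0.60 ± 0.54, and -1.54 ± 0.57 without a covariate and -2.08 ± 0.36, -1.44 ± 0.36, and -1.59 ± 0.33 with the batch.

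**Figure D4:**
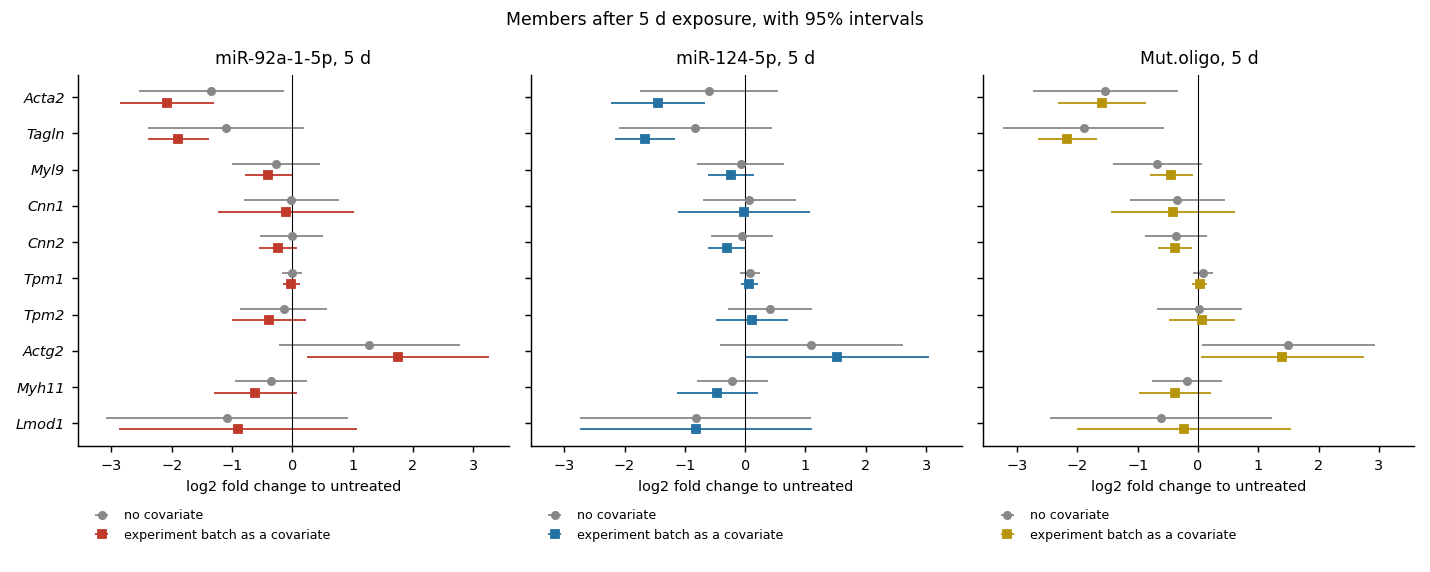
Log2 fold change of the 10 members to untreated neurons at 5 d for each oligoribonucleotide, with 95% intervals, from the fit without a covariate (gray circles) and from that with the batch as covariate (coloured squares). Acta2 and Tagln lie to the left of 0 in all 3 panels and Actg2 to the right, while Tpm1 lies within 0.09 of 0.

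Untreated replicate 1 weighs on these values. It held 3.48 CPM of Acta2 and 5.70 CPM of Tagln, and without it the fold changes without a covariate shrank to -0.62, 0.13, and -0.81 for Acta2 and to -0.31, -0.04, and -1.11 for Tagln. With the batch as a covariate, Tagln remained at -1.98 ± 0.33, -1.74 ± 0.33, and -2.25 ± 0.31 and Acta2 at -1.74 ± 0.49, -1.12 ± 0.48, and -1.32 ± 0.43 without that library, but 0 members were called in any of the 3 comparisons. The call of Tagln after miR-124-5p was also lost without untreated replicates 2 or 4 or miR-124-5p replicates 2, 3, or 4, and that of Acta2 after miR-92a-1-5p without untreated replicate 2 or miR-92a-1-5p replicates 3 or 4. Pairs within a batch share untreated libraries and, like the fits, only describe libraries on which the list was selected. Of 7 pairs of an exposed and an untreated library of the same batch, 3 contain untreated replicate 1, and Tagln and Acta2 were lower in the exposed library in all 7. In log2(CPM + 0.1), the difference was -2.27 to -1.25 for Tagln and -2.07 to -0.48 for Acta2. As an example, Tagln was counted 60 times in untreated replicate 2 and 9 times in the Mut.oligo library of its batch, at 1.21 and 0.172 CPM.

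**Figure D5:**
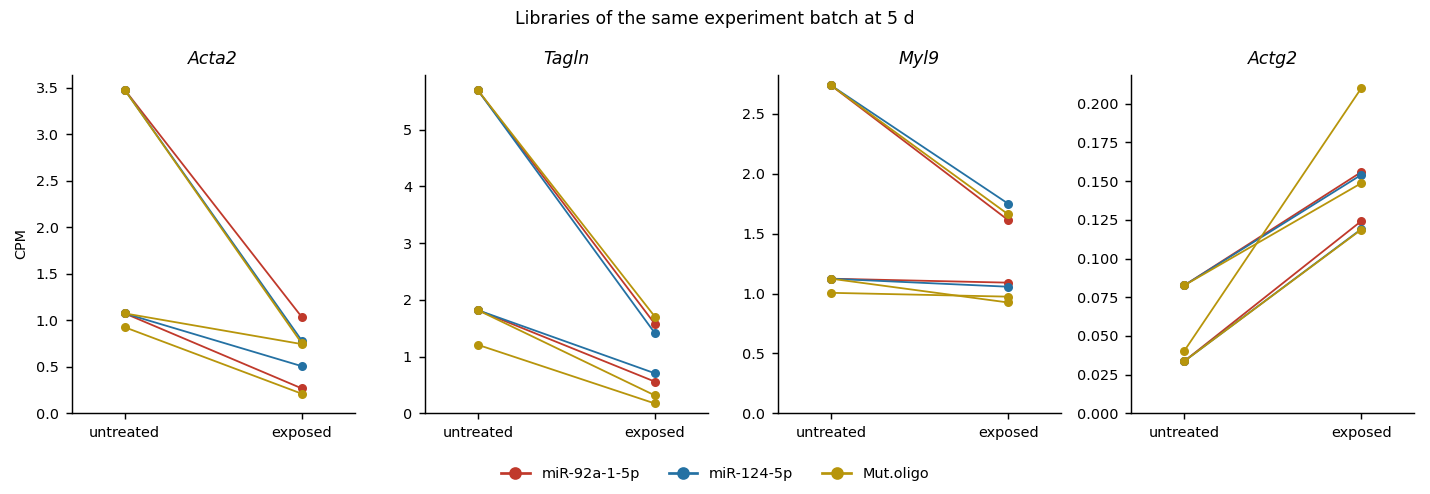
CPM of Acta2, Tagln, Myl9, and Actg2 at 5 d in untreated libraries and in the exposed libraries of the same experiment batch, joined by lines (7 pairs over 3 untreated libraries, coloured by oligoribonucleotide). All 7 lines fall for Acta2, Tagln, and Myl9 and rise for Actg2, whose untreated libraries hold 2 to 5 counts.

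Actg2 went the other way. It was counted 2, 2, 1, and 5 times in untreated neurons at 5 d, 3, 6, 4, and 7 times after miR-92a-1-5p, 0, 7, 5, and 7 times after miR-124-5p, and 6, 11, 2, and 9 times after Mut.oligo. In all 7 pairs within a batch the exposed library was higher. The ratios of summed CPM to untreated were 2.46 (counting interval 1.10 to 5.88), 2.19 (0.968 to 5.27), and 2.82 (1.33 to 6.52), and the fits called no change in Actg2. The 2 smooth muscle actins thus had opposite directions after exposure, at levels at which Actg2 is close to the floor.

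The other members differed less. Myl9, the regulatory light chain, was measured at 2.74, 1.01, 2.64, and 1.12 CPM in untreated neurons at 5 d, at 2.21, 1.61, 1.196, and 1.09 CPM after miR-92a-1-5p, at 3.00, 1.75, 1.29, and 1.06 CPM after miR-124-5p, and at 1.66, 0.974, 1.01, and 0.925 CPM after Mut.oligo. All groups overlapped. Within batches, it was lower in 7 of 7 pairs, with differences of -0.73 to -0.04 in log2(CPM + 0.1) and log2 fold changes of -0.40 ± 0.18, -0.24 ± 0.18, and -0.44 ± 0.17 with the batch as a covariate. Cnn2 lay at 2.29 to 3.67 CPM after miR-92a-1-5p, at 1.75 to 4.11 CPM after miR-124-5p, and at 1.70 to 2.81 CPM after Mut.oligo, beside 2.21 to 4.02 CPM in untreated neurons. It was lower in 5 of 7 pairs with -0.24 ± 0.14, -0.31 ± 0.14, and -0.38 ± 0.13. Myh11, the myosin that marks mature smooth muscle, lay at 0.313 to 0.562 CPM in untreated neurons and at 0.228 to 0.4995 CPM in all exposed libraries. It was lower in 6 of 7 pairs with -0.61 ± 0.31, -0.46 ± 0.31, and -0.39 ± 0.28. Tpm1 differed by at most 0.08 within pairs, at 94.0 to 122 CPM over all 5 d libraries. Tpm2 was lower in 5 of 7 pairs, Lmod1 in 5, and Cnn1 in 2, with intervals that reach to both sides of 0 in all 3 comparisons. Over the 10 members, the median log2 fold change with the batch was -0.39, -0.27, and -0.39, beside -0.007, -0.0002, and -0.001 over all genes. Myl9 and Lmod1 were thus higher in most pairs at 6 h and lower in most pairs at 5 d. The same order held for Acta2, Tagln, and Tpm2, each higher in 5 of 8 pairs at 6 h. At 5 d, these 3 were lower in 7, 7, and 5 of 7 pairs, respectively. Such differences between times were not tested.

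Whether the sequence of the oligoribonucleotide mattered was asked by comparing each miRNA with Mut.oligo. None of the 10 members passed at 6 h or 5 d, without a covariate (0.0% of all genes in each of the 4 comparisons) or with the batch as a covariate (0.0% at 6 h for both miRNAs, 0.0103% and 0.0% at 5 d for miR-92a-1-5p and the other miRNA). At an unadjusted p under 0.05, the fit without a covariate also gave 0 members in all 4 comparisons, beside 325 to 671 of all genes. The fit with the batch gave 1 member for miR-92a-1-5p at 6 h, beside 526 of all genes, and 0 members in the other comparisons. At 5 d and with the batch, Tagln differed from Mut.oligo by 0.28 after miR-92a-1-5p (95% interval -0.24 to 0.80) and by 0.51 after miR-124-5p (-0.01 to 1.02). Acta2 differed by -0.49 (-1.29 to 0.32) and 0.15 (-0.63 to 0.93), respectively. All 4 intervals include 0.

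Genes that regulate or accompany the programme were looked at beside the members at 5 d. Of the 15 other smooth muscle contractile and cytoskeletal genes, 12 were tested, and 0 passed in either direction after any oligoribonucleotide, with or without the batch. The same was found for 11 tested regulators, with Srf at 32.5 to 64.8 CPM, Mrtfb at 53.3 to 97.4 CPM, and the TGF-beta receptor gene Tgfbr1 at 35.0 to 82.9 CPM over all libraries, and for the 14 non-muscle and 6 tested striated muscle counterparts. Among the abundant genes of these lists were filamin (Flna, mean of 235 CPM), the myosin phosphatase subunit Ppp1r12b (173 CPM), Actb (2139 CPM), Tmod2 (932 CPM), and the striated muscle genes Myh7 (3.47 CPM) and Acta1 (1.42 CPM). Medians over the regulators without a covariate were 0.007, -0.03, and -0.03.

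Markers of other cells were also looked at after exposure at 5 d. Among 9 mural cell genes, 7 were tested and 0 passed with or without the batch. Their summed level was 16.8 to 25.5 CPM in untreated neurons, 14.1 to 25.7 CPM after miR-92a-1-5p, 13.4 to 24.6 CPM after miR-124-5p, and 13.9 to 18.6 CPM after Mut.oligo, with Higd1b at 0 in 27 of 32 libraries. The 2 most abundant of them differed among themselves: with the batch, the log2 fold changes of Cspg4 were -0.59 ± 0.12, -0.52 ± 0.12, and -0.57 ± 0.11, and those of Pdgfrb were 0.04 ± 0.10, -0.24 ± 0.10, and -0.05 ± 0.09, none of which passed. The 9 fibroblast and meningeal genes summed to 146 to 219 CPM in untreated neurons and to 112 to 136, 136 to 178, and 114 to 168 CPM after exposure. Pdgfra was the only one that passed with the batch, lower by log2 fold changes of -1.58, -1.54, and -1.47. Of 8 tested endothelial genes, Kdr (the VEGF receptor 2 gene) was the only one that passed, with -1.46, -1.01, and -1.38, while the endothelial markers Cldn5 and Tie1 were at or under 3 counts in 28 and 30 libraries. Genes of dividing cells summed to 72.4 to 77.9 CPM in untreated neurons and to 27.9 to 65.7, 39.3 to 62.6, and 35.9 to 55.4 CPM after exposure, without overlap. Of these, Top2a, Cdk1, Mki67, Ccnb1, and Birc5 passed after miR-92a-1-5p with the batch, as did the oligodendrocyte lineage genes Olig2, Olig1, and Sox10. Other sums also lay below all untreated libraries after miR-92a-1-5p. These were the fibroblast sum above, the endothelial sum (6.73 to 7.89 against 8.27 to 14.4 CPM), and the oligodendrocyte lineage sum (91.7 to 150.5 against 156.7 to 196.6 CPM). The last was also lower without overlap after Mut.oligo (133 to 144.3 CPM), while for these 3 lists the remaining exposed groups overlapped. Untreated replicate 1, which was highest for Acta2 and Tagln, was also highest among untreated libraries for the summed genes of fibroblasts (219 CPM), endothelium (14.4 CPM), oligodendrocyte lineage (197 CPM), and microglia (15.2 CPM), but not for those of mural cells (21.9 CPM), astrocytes, neurons, or dividing cells. The part of these cells in the values of Acta2 and Tagln was not tested.

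Genes that varied with Acta2 across the 32 libraries were sought by the root mean square difference of log2 CPM, each gene centred on its mean at each time. A gene that does not vary would score 0.849. Tagln, with 0.608, was nearer than any of the 13654 genes ranked. It was not ranked itself, as its mean of 0.840 CPM is under the minimum of 1 CPM set for ranking. Among ranked genes, Angptl2, an angiopoietin-like secreted protein (0.638), came first and Cnn2 second (0.654), followed by Aebp1 (0.657), 1500015O10Rik (0.663), the caveolar coat gene Cavin1 (0.667), and the secreted matrix protein gene Ccn1 (0.674). Tpm2 ranked 24 and Myl9 226, whereas Tpm1 ranked 9106. Actg2 and Cnn1, both scarce, would have ranked 13637 and 13019, near the far end. Counting error of scarce genes enters this measure, so these ranks do not show a variation against Acta2. Lmod1, also scarce, would have ranked 8598, but 995 when the prior count added before the logarithm was 5 in place of 2. Of the fixed lists, Cald1 (caldesmon, rank 83), Myl12a (85), Kdr (91), and Tpm4 (182) were within the first 200. Differences in depth and batch are shared by all genes of a library and enter this measure. The members were also selected on these libraries, so that the nearness of Tagln and Cnn2 is a description and supports nothing.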

How the data were processed

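RNA was extracted with RNeasy kits, libraries were made with a stranded mRNA kit, and 75-base single-end reads were sequenced. The authors aligned reads to GRCm38 with STAR and deposited raw counts per gene from featureCounts (Subread), made on the strand of the gene. Positions and lengths were taken here from GENCODE M21, a later release than the one the authors counted on. Of 49671 gene IDs, 49326 had a symbol. Counts were tested with edgeR 4.0.16 (quasi-likelihood, TMM scaling, R 4.3.3, limma 3.58.1) in the 16 libraries of a time point, or in all 32 for untreated neurons over time, over genes that reached 5 counts in 3 or more libraries. A gene was called at a Benjamini-Hochberg adjusted p under 0.05 over all genes tested and an absolute log2 fold change above 0.5. Alternatives included a covariate for the experiment batch, DESeq2 1.42.0, other filters, a replicate block, and leaving out each library. The fits without a covariate were first tested on simulated data without batch effects, for miR-92a-1-5p against untreated neurons. The fits with the batch were not tested in this way. The 10 members and all gene lists were chosen with earlier results of these data known. The 10 members were named throughout, and other genes as members of a list or as the 5 closest to Acta2. Replicates differed beyond sampling noise, with a chi-square per degree of freedom of 6.6 to 100.7 over 48 pairs. All intervals are 95% intervals, and those named counting intervals and floors cover counting error only, since reads carried no molecular identifiers.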

Additional observations from a re-analysis of the deposited data

Results flagged for a closer look

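In 5 of the 80 sets of 4 libraries, a set being 1 member in 1 group, a single library stood apart by more than Dixon's 95% critical value for the gap over the range, and chance gives about 1 in 20. Acta2 was at 3.48 CPM in untreated replicate 1 at 5 d, beside 0.880 to 1.07 CPM in the other untreated libraries. The same library held Tagln at 5.70 CPM, beside 1.21 to 1.82 CPM. Acta2 was at 2.43 CPM in miR-124-5p replicate 1 at 5 d, beside 0.506 to 0.782 CPM. Myl9 was at 1.66 CPM in Mut.oligo replicate 1 at 5 d, which belongs to the batch of untreated replicate 1, beside 0.925 to 1.01 CPM. Cnn1 was at 0.0573 CPM in Mut.oligo replicate 2 at 5 d, beside 0.198 CPM in each of the others.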

How the results depend on the processing

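Under other settings, 6 results for the members moved and 4 log2 fold changes changed sign. When a library was left out, 9 results moved and 12 log2 fold changes changed sign. Acta2 over time newly passed without untreated 5 d replicate 1 (-1.76). With the batch as a covariate, Tagln newly passed after all 3 oligoribonucleotides at 5 d and Acta2 after miR-92a-1-5p. Counts of called members changed as follows. At 5 d against untreated, members called rose from 0 to 2, 1, and 1 for the oligoribonucleotides in the order above with the experiment batch as a covariate and to 2, 1, and 2 with DESeq2 and the batch. With the batch and 1 library left out, a choice made after seeing the data, 0 to 1, 0 to 2, and 0 were called where the count moved. Untreated neurons over time gave 1 call in place of 3 with at least 10 counts in every library, a filter that leaves out Tagln and Actg2. Shares over all genes are not given for DESeq2, for fits without a library, or for this filter. Their counts of members are therefore a description only. Of the 5 genes closest to Acta2, 2 stayed with a minimum mean of 5 CPM. This was fixed by the filter, since Angptl2, Aebp1, and 1500015O10Rik have lower means and were left out. Values near 0 changed sign at 6 h against untreated: Acta2 after miR-124-5p was -0.0052 with the batch, -0.031 with DESeq2 and the batch, and -0.0102 to 0.49 without a library, and without a library Acta2 after miR-92a-1-5p ranged from -0.11 to 0.72, Tagln after miR-124-5p from -0.47 to 0.30, and Myl9 after miR-124-5p from -0.026 to 0.30. Acta2 after miR-92a-1-5p against Mut.oligo at 5 d turned to -0.49 with the batch, -0.48 with DESeq2 and the batch, and ranged from -0.18 to 0.44 without a library. Over time, Myh11 ranged from -0.16 to 0.38 and Lmod1 from -1.40 to 0.13 without a library. The causes were not tested. Equal replicate numbers do not in general pair exposed and untreated libraries, and at 6 h none of them shared a batch. At 5 d, only Mut.oligo replicates 1, 2, and 4 and replicate 4 of each miRNA did. Deviations correlated by -0.252 to 0.422 between equal numbers. The highest value belongs to Mut.oligo replicate 2 at 5 d, a pair within a batch. With a replicate block, 0 members were called in each comparison of oligoribonucleotides and 3 over time, as without it. At these depths, Lmod1, Actg2, and Cnn1 carry too few counts for small changes to be seen.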
